A study of Bos taurus with 20 samples.

Results

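Cluster 1 is the smallest group of genes that the study drew from maternal blood across gestation, and it holds genes with their highest level around day 21. The genes described here are those of Cluster 1 that remained once every symbol starting with IFI, IFIT, MX, OAS, ISG, IRF, GBP, STAT, PARP or TRIM was taken out. Of its 57 rows, 54 carried an Entrez identifier, 20 of these were removed by the prefixes and 34 remained, out of 37063 genes in the count files. All 34 had the same symbol in the gene table of the ARS-UCD2.0 assembly. The rule used no birth weight of these cows, although the study built the cluster from integrated data that included their libraries as its day 63 time point.

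The data came from the whole blood of 20 recipients, drawn at day 63 of pregnancy. Every cow gave 1 library, and there was no treated, later or nonpregnant group. Each cow carried a female beef fetus from an oocyte of a beef donor fertilized in vitro with X-sorted semen, and the study's text gives the recipients as lactating dairy cows in 1 place and as Angus in another. Calf birth weight (BW) was the variable compared, and it was used as a continuous measure in 19 cows with calves of 30 to 56 kg. The cow of the 72.5 kg calf was set aside as an outlying weight. The recipients also differed in age, which the labels do not give for each cow, so age could not be entered in a fit. Total counts per cow were between 24632077 and 39892111, and no batch was named, so no comparison within batches could be made.

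Interferons are secreted signals that bind paired receptors on the cell surface and switch on a large set of antiviral genes through the JAK kinases and STAT factors. In ruminants the early conceptus secretes an interferon, interferon tau, and the antiviral genes of maternal blood cells rise around the time when pregnancy is recognized. Toll-like receptors, their adaptors and the kinases behind them lead to the production of interferon, whereas complement, haptoglobin and phagocyte proteins belong to the first line of defense.

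Most of the slopes were negative, but the median slope was within 1 standard error of 0 and no gene passed the FDR threshold. The majority shrank when the cow with the 56 kg calf was left out (20 of 33, against 52.6% of all genes). Of the 34 genes, 33 passed the filter on low counts (10 or more in 5 or more cows), and 25 of the 33 had a negative slope on calf BW, against 53.4% of the 16206 genes tested. The slope is the log2 fold change of the level per kg of calf BW from edgeR's quasi-likelihood fit. The median slope of the 33 genes was -0.00452, with a jackknife standard error over cows of 0.00517, and the median of all genes tested was -0.000719. With a negative slope, 2 genes had an unadjusted p below 0.05, where 7.08% of all genes did, and 1 gene did with a positive slope, where 6.78% of all genes did. None of the 33 genes had an FDR (Benjamini-Hochberg over all genes tested) below 0.05 with edgeR, where 0% of all genes had one, or with DESeq2, where 0.819% had one. DESeq2 gave a negative slope for 25 of the 33 genes (51.3% of all genes), and again 2 negative slopes and 1 positive slope with an unadjusted p below 0.05, against 5.07% and 5.56% of all genes.

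The 2 genes with a negative slope and an unadjusted p below 0.05 were RSAD2 and EIF2AK2, and both are interferon-stimulated genes that the prefixes left in. For 19 of the 33 genes the slope was less than 1 standard error from 0, against 53.4% of all genes. For 30 it was less than 2 standard errors from 0, a count that was not made over all genes. Of all genes 7.08% had an unadjusted p below 0.05 with a negative slope and 6.78% with a positive one. The median CPM was higher in the 6 cows with the lightest calves (30 to 38 kg) than in the 6 with the heaviest (49.5 to 56 kg) for 19 genes and lower for 14, where 51.8% of all genes were higher. Levels of the lightest and heaviest calves overlapped for every one of the 33 genes, and 0.777% of all genes had no overlap.

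**Figure D1:**
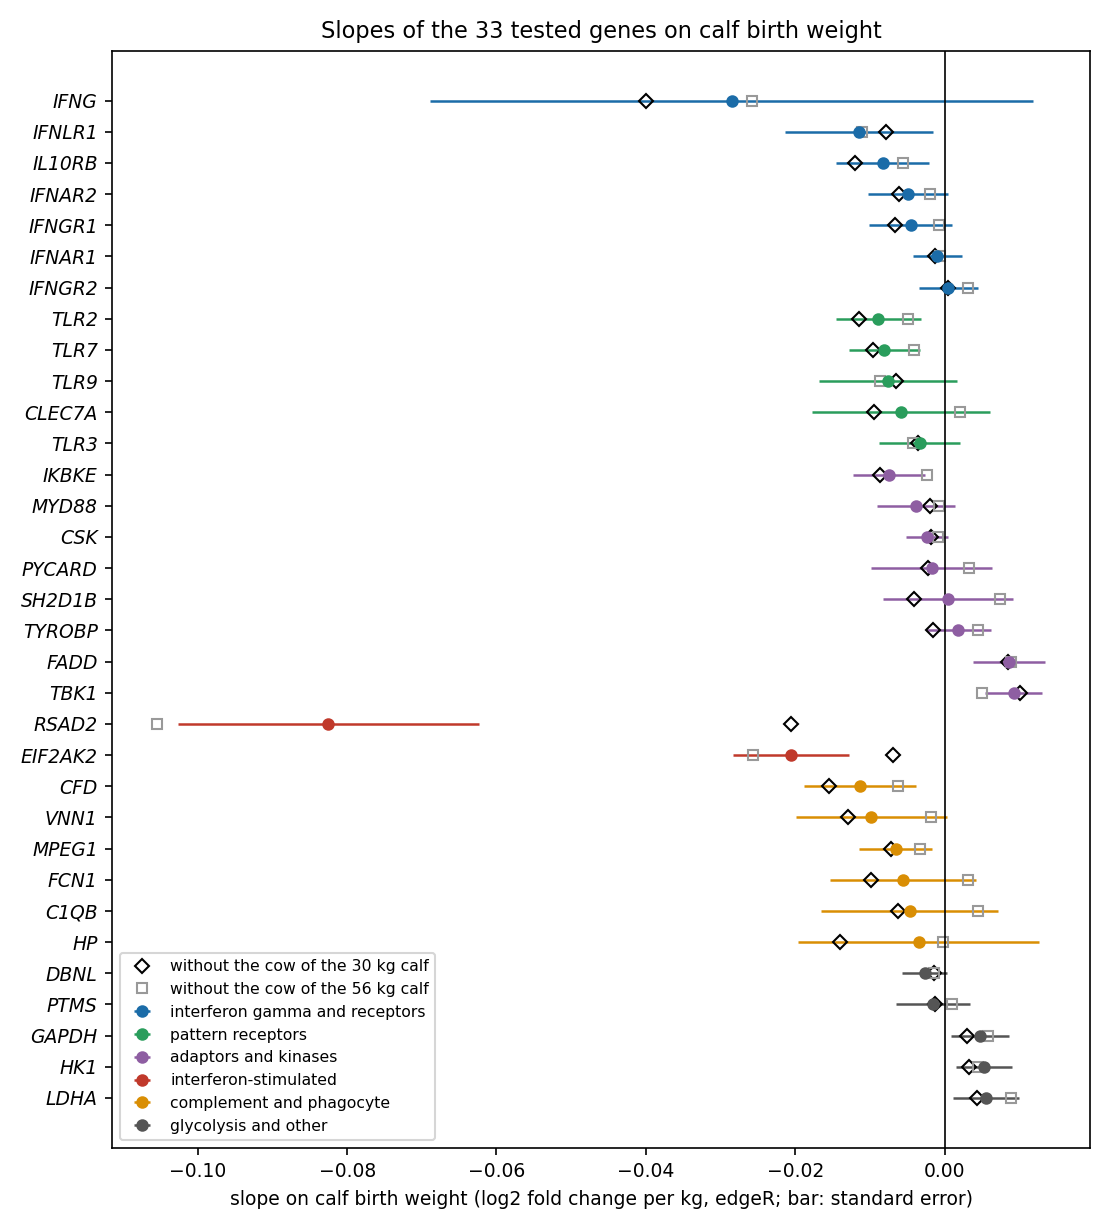
Slope of each of the 33 tested genes on calf BW in 19 cows, in log2 fold change per kg, ordered by role, with bars of 1 standard error. Diamonds show the slope without the cow with the 30 kg calf and squares that without the cow with the 56 kg calf. RSAD2 lies apart at -0.0825 and moves to -0.0205 without the cow with the 30 kg calf, whereas most other genes lie within 0.01 of 0.

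RSAD2 (Entrez 506415) encodes viperin, a radical SAM enzyme that blocks the replication of many viruses. Its level over the 19 cows was between 13.1 and 250.2 CPM, with a median of 27.2. The highest value was that of the cow with the 30 kg calf, and the next was 45.8 CPM in the cow with the 39 kg calf. The one after it, 40.6 CPM, belonged to the cow with the 56 kg calf, the heaviest of the 19. The slope was -0.0825 (standard error 0.0202, edgeR p = 0.000544, FDR of 0.109; DESeq2 FDR of 0.0749), so that the fitted level at 56 kg was 0.226 times that at 30 kg. Without the cow with the 30 kg calf the slope was -0.0205 (standard error 0.0140, edgeR p = 0.157). In each of the other 18 fits that left out 1 cow the edgeR p stayed below 0.05. Medians were 27.3 CPM for the lightest, 28.9 for the middle and 18.9 for the heaviest calves, and the range of the heaviest (13.1 to 40.6) overlapped that of the lightest (24.7 to 250.2).

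EIF2AK2 (Entrez 347700) encodes PKR, a kinase that senses double-stranded RNA and halts translation by phosphorylating eIF2 alpha. Its level was between 132.1 and 346.4 CPM with a median of 169.7, and the highest value was again that of the cow with the 30 kg calf, followed by 216.0 CPM in the cow with the 41.5 kg calf. The slope was -0.0206 (standard error 0.00780, edgeR p = 0.0155, FDR of 0.248; DESeq2 FDR of 0.178). Without the cow with the 30 kg calf it was -0.00694 (standard error 0.00655, edgeR p = 0.302), and in the other 18 fits without 1 cow the p stayed below 0.05. Only these 2 of the 33 genes had their highest level in the cow with the 30 kg calf, while 6.38% of all genes did.

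**Figure D2:**
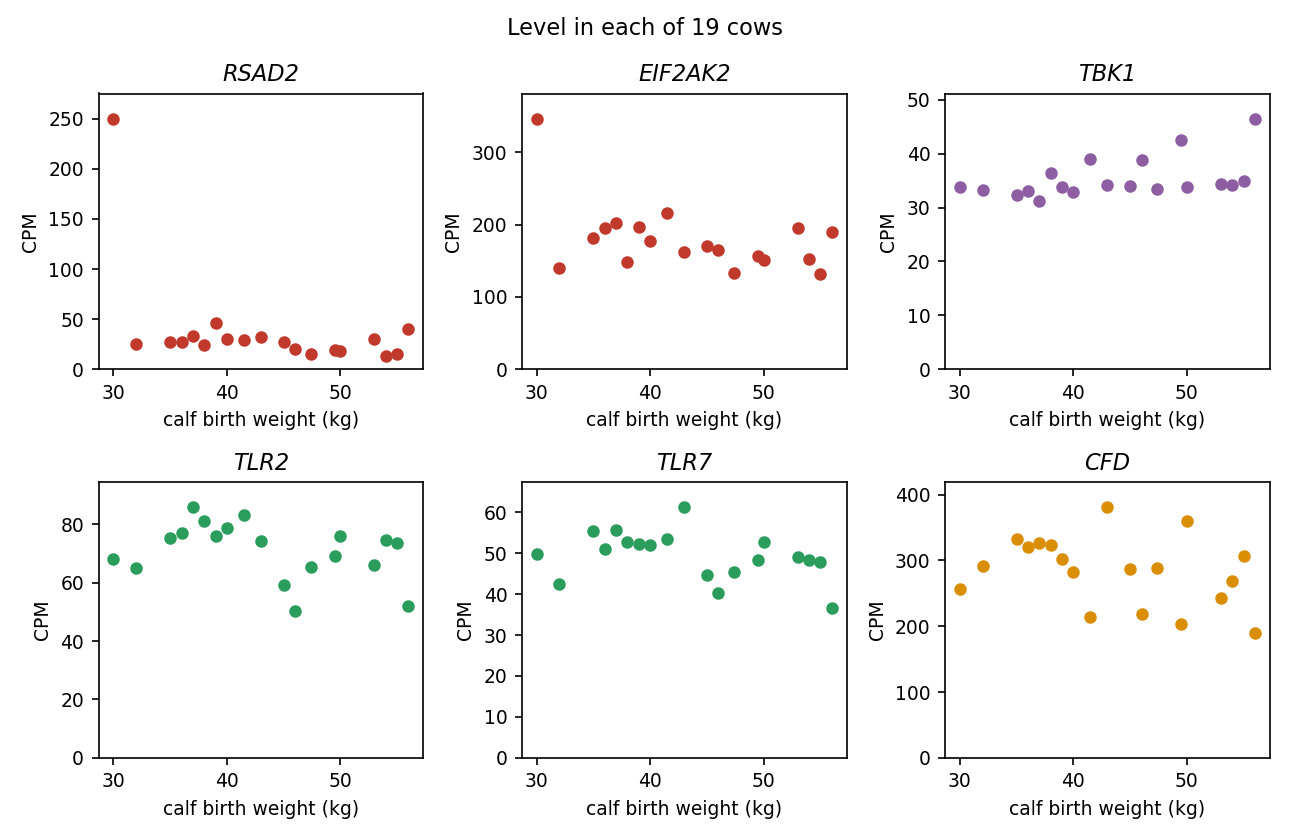
Level in CPM (vertical axis, from 0) against calf BW in kg, with 1 point for each of 19 cows, for RSAD2, EIF2AK2, TBK1, TLR2, TLR7 and CFD. In RSAD2 and EIF2AK2 the cow with the 30 kg calf stands above the others, and in TBK1 the cow with the 56 kg calf has the highest level, 46.5 CPM.

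The cow with the 30 kg calf also had the smallest library, 24632077 counts. With library size as a covariate the slope of RSAD2 was -0.0706 (edgeR p = 0.000565) and the slope of EIF2AK2 -0.0185 (edgeR p = 0.0138).

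On average the genes that the prefixes removed were also high in the same cow, but not every one of them. IRF4 and IRF8 were highest in the cow with the 43 kg calf and IRF5 and TRIM8 in that with the 50 kg calf. IRF2 was highest in the cow with the 37 kg calf and TRIM68 in that with the 53 kg calf. Of the 20 removed genes 17 were tested, and 15 had a negative slope (53.4% of all genes). An unadjusted p below 0.05 was found for 7 of these (7.08% of all genes), and the median slope was -0.00895. With DESeq2, IRF7 and MX2 had an FDR below 0.05 (0.00926 and 0.0297), where 0.819% of all genes did. Without the cow with the 30 kg calf, 0 of the removed genes had one with DESeq2, where 189 of 23001 genes did. With edgeR and without that cow, 15 of the removed genes were still negative (53.2% of all genes) and the median was -0.00330. A negative slope with a p below 0.05 remained for 3 of them, IRF7, MX2 and IRF8 (6.84% of all genes). For these 3 the edgeR p was below 0.05 in each of the 19 fits that left out 1 cow. Their mean z-score (the mean over genes of the log2 CPM, centred and scaled across cows) was 2.16 in that cow and 0.770 in the next highest, the cow with the 43 kg calf. With this score as a covariate, the slope was -0.00586 for RSAD2 (edgeR p = 0.719) and -0.00281 for EIF2AK2 (edgeR p = 0.710). The score and these 2 interferon-stimulated genes were all highest in the cow with the 30 kg calf, so their smaller slopes were largely fixed beforehand. In the same fit 18 of the 33 genes had a negative slope, where 53.3% of all genes did. None of the 33 had a negative slope with a p below 0.05 in that fit (5.79% of all genes did), FADD was the 1 gene with a positive one (5.92% of all genes), and the median was -0.00310.

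Without RSAD2 and EIF2AK2, a list made after the values were seen, 23 of 31 genes had a negative slope, against 53.4% of all genes. The median was -0.00381, with a jackknife standard error of 0.00511. None of the 31 had a negative slope with an unadjusted p below 0.05, where 7.08% of all genes did. Their fitted levels at 56 kg were between 0.598 and 1.18 times those at 30 kg, and between 0.813 and 1.18 times when the rare transcript IFNG is left aside. For 30 of the 31 genes the slope minus 2 standard errors lay above -0.0825, the slope of RSAD2, and for 21 it lay above -0.0206, that of EIF2AK2.

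Leaving out the cow with the 30 kg calf did not weaken the direction of these 31 genes, of which 25 were then negative with a median of -0.00608. Over all 33 genes 27 were negative in that fit, against 53.2% of all genes, and 0 had a negative slope with a p below 0.05, against 6.84%, while TBK1 had a positive one, against 6.72%. At the other end, without the cow with the 56 kg calf, 20 of the 33 genes had a negative slope, against 52.6% of all genes, and the median was -0.000745, close to the -0.000512 of all genes. In that fit RSAD2 and EIF2AK2 were the 2 genes with a negative slope and a p below 0.05 (5.52% of all genes), and none had a positive one (4.41% of all genes). The cow with the 56 kg calf had the lowest level of 9 of the 33 genes, namely CFD, VNN1, TLR7, IKBKE, MPEG1, CLEC7A, FCN1, C1QB and SH2D1B, while 8.53% of all genes had their lowest level in it.

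**Figure D3:**
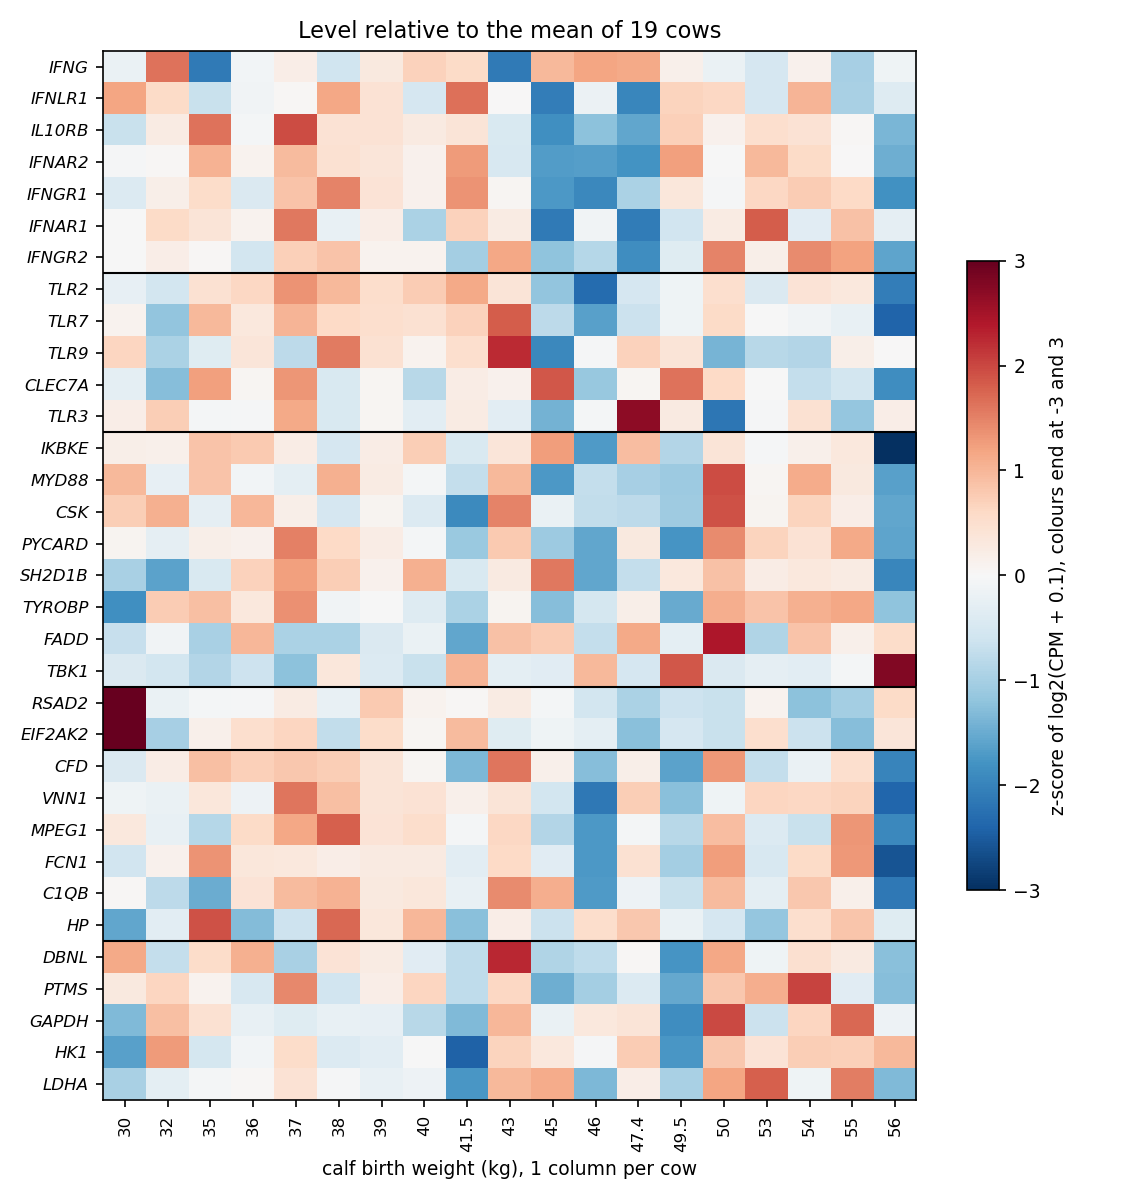
Level of the 33 tested genes (rows, grouped by role as in the plot of slopes) in 19 cows (columns, ordered by calf BW in kg), as a z-score of log2(CPM + 0.1) across cows, with colours ending at 3 on either side of 0. The cow of the 30 kg calf is deep red in RSAD2 and EIF2AK2, and the cow with the 56 kg calf is blue in most pattern receptor and phagocyte genes and red in TBK1.

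Markers of monocytes and of neutrophils were both lowest in the same cow. All 9 tested monocyte markers of a list of 10 were negative in slope, against 53.4% of all genes, with a median of -0.00880. None of them had an unadjusted p below 0.05 (7.08% of all genes with a negative slope), and CX3CR1 had no count. Their summed level was 2464 to 4200 CPM with the lightest, 2007 to 3417 with the middle and 1937 to 3489 with the heaviest calves, and the lowest was that of the cow with the 56 kg calf. With the monocyte score as a covariate 20 of the 33 genes had a negative slope (53.4% of all genes did) and the median was -0.000734, while RSAD2 and EIF2AK2 had slopes of -0.0940 and -0.0245 and remained the 2 genes with a negative slope and a p below 0.05 (6.23% of all genes). With a positive slope LDHA had a p below 0.05 in that fit, as 5.45% of all genes did. The summed level of the neutrophil markers was 3440 to 4359 CPM with the lightest, 2893 to 3916 with the middle and 2870 to 4745 with the heaviest calves, again lowest in the cow with the 56 kg calf. With the neutrophil score as a covariate 23 of the 33 genes were negative (54.5% of all genes) and the median was -0.00347. In that fit RSAD2 and EIF2AK2 had a negative slope with a p below 0.05 (7.57% of all genes) and TBK1 a positive one (6.5% of all genes). In whole blood, fewer cells of a type and less RNA per cell cannot be told apart. Neutrophil markers were negative for 8 of 10 (median -0.00279) and B cell markers for 7 of 7 (median -0.00711), against 53.4% of all genes. T cell markers were negative for 3 of 7 and natural killer cell markers for 2 of 8. None of these negative slopes had an unadjusted p below 0.05 (7.08% of all genes). With a positive slope 1 neutrophil and 1 natural killer cell marker did (6.78% of all genes). The part of these cells other than monocytes and neutrophils in the result was not tested. Erythroid markers were negative for 7 of 8 (median -0.0445), where 53.4% of all genes were. Platelet and eosinophil markers were positive for 6 of 8 and 2 of 2 (medians 0.0104 and 0.0371), where 7544 of 16206 genes were. Of these lists only HBB (negative), ITGA2B and IL5RA (both positive) had an unadjusted p below 0.05. Of all genes 7.08% had one with a negative slope and 6.78% with a positive one. From the eosinophil list CCR3 and ALOX15 had no count, and SIGLEC8, EPX and PRG2 were not matched by name. The part of these cells was not tested either. The 3 leukocyte markers PTPRC, CORO1A and LCP1 summed to at least 7849 CPM in every cow, as the label of blood requires.

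**Figure D4:**
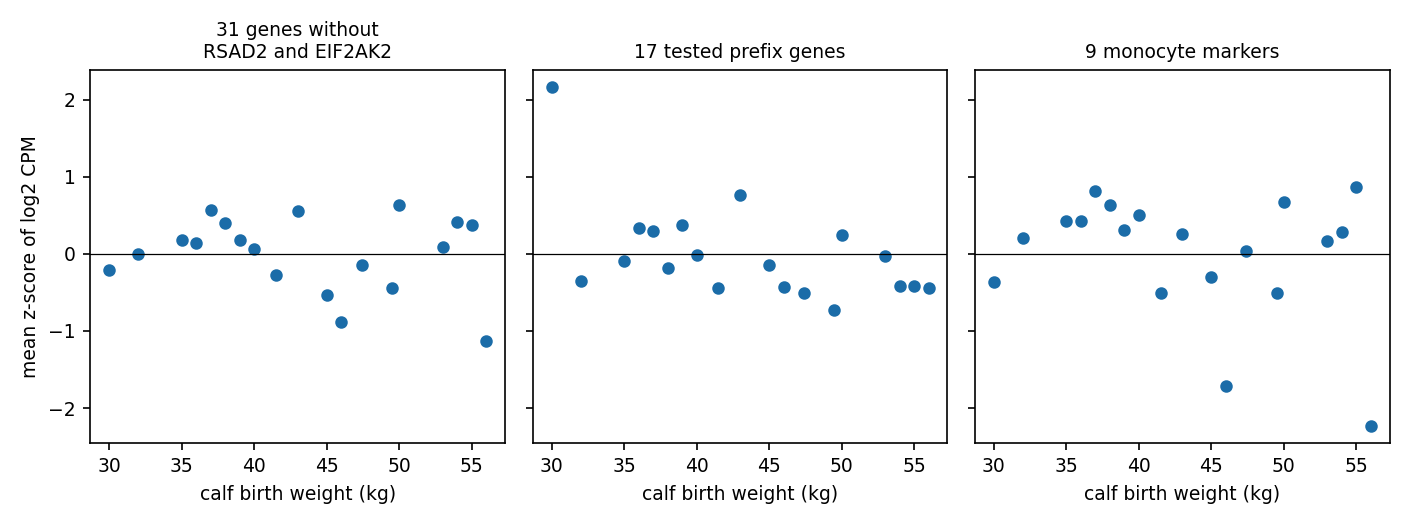
Mean z-score of log2 CPM in each of 19 cows against calf BW in kg, for the 31 genes without RSAD2 and EIF2AK2, the 17 tested genes that the prefixes removed and 9 monocyte markers. The cow of the 30 kg calf is high in the removed genes (2.16) and near the others in the 31 genes (-0.207), and the cow with the 56 kg calf is lowest in the 31 genes (-1.13) and in the monocyte markers (-2.23).

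Among interferon gamma and the receptors, 6 of 7 genes were negative in slope, where 53.4% of all genes were, with a median of -0.00484, and none had an unadjusted p below 0.05. IFNG (Entrez 281237), the interferon of T and natural killer cells, was rare. It had between 0 and 60 counts per cow, a median of 0.440 CPM and a highest level of 1.57 CPM in the cow with the 32 kg calf, and it was at 0 in the cows with the 35 and 43 kg calves. Its slope was -0.0285 with a standard error of 0.0404 (edgeR p = 0.488), and it turned to 0.0104 without the cow with the 32 kg calf. The 2 chains of the type I receptor had slopes of -0.000947 (IFNAR1) and -0.00484 (IFNAR2), and those of the interferon gamma receptor -0.00452 (IFNGR1) and 0.000507 (IFNGR2). For the lambda receptor the slopes were -0.0115 (IFNLR1) and -0.00829 (IL10RB, a chain shared with the receptor of interleukin 10). The highest to lowest ratio across cows was 1.35 for IFNAR1, 1.37 for IFNGR2, 1.52 for IFNAR2 and 1.62 for IFNGR1, and it was larger for IL10RB (1.84) and IFNLR1 (2.52). Of 11 other genes of the pathway below these receptors, 6 were negative, against 53.4% of all genes. An unadjusted p below 0.05 was found for 1 negative and 2 positive slopes (7.08% and 6.78% of all genes). TYK2, a JAK kinase bound to the type I receptor, had the smallest p (slope 0.0105, standard error 0.00309, edgeR p = 0.00274, FDR of 0.170).

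All 5 pattern receptors were negative in slope (53.4% of all genes were), with a median of -0.00761, but none had an unadjusted p below 0.05. TLR2 (Entrez 281534), a receptor of bacterial lipopeptides on the cell surface, had between 50.2 and 85.9 CPM with a median of 74.4, the highest in the cow with the 37 kg calf and the lowest in that with the 46 kg calf. Its slope was -0.00886 (standard error 0.00565, edgeR p = 0.132) and -0.00483 without the cow with the 56 kg calf. TLR7 (Entrez 493686), an endosomal sensor of single-stranded RNA, had 36.7 to 61.3 CPM with a median of 49.7 and a slope of -0.00807 (standard error 0.00479, edgeR p = 0.108), or -0.00412 without that cow. TLR9, a sensor of unmethylated DNA, had a slope of -0.00761, CLEC7A, the beta-glucan receptor dectin-1, -0.00582, and TLR3, a sensor of double-stranded RNA, -0.00334. Without the cow with the 56 kg calf the slope of CLEC7A was 0.00205. When the cow with the 72.5 kg calf was kept, TLR2 and TLR7 joined RSAD2 and EIF2AK2 with an unadjusted p below 0.05 (0.0428 and 0.0463 with edgeR, FDR of 0.358 and 0.365), which made 4 of 33 genes where 6.41% of all genes were so called. In those 20 cows 25 of the 33 genes were negative, against 50.8% of all genes, and TBK1 was the 1 gene with a positive slope and a p below 0.05, against 6.96%. Of 11 related receptors and partners fixed in a list, 10 were negative, against 53.4% of all genes, with a median of -0.00662. TLR5, the flagellin receptor, had the smallest p (slope -0.0246, standard error 0.00879, edgeR p = 0.0108, FDR of 0.220).

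The adaptors and kinases were split, with 4 of 8 negative, against 53.4% of all genes, and a median of -0.000659. TBK1 (Entrez 533141), the kinase that activates IRF3 below the nucleic acid sensors, was the 1 gene with a positive slope and an unadjusted p below 0.05. Its level was between 31.2 and 46.5 CPM with a median of 34.1, and the cows with the 56 and 49.5 kg calves had the highest levels, 46.5 and 42.5 CPM. The slope was 0.00926 (standard error 0.00385, edgeR p = 0.0256, FDR of 0.283; DESeq2 FDR of 0.227), and the fitted level at 56 kg was 1.18 times that at 30 kg. Without the cow with the 56 kg calf it was 0.00501 (edgeR p = 0.180), and in the other 18 fits without 1 cow the p stayed below 0.05. The study listed TBK1 among its biomarkers from these cows, so this slope is not independent of that choice. IKBKE, the closest relative of TBK1, had a negative slope of -0.00744 (standard error 0.00480, edgeR p = 0.136), and it was lowest in the cow in which TBK1 was highest. FADD, the adaptor of death receptors, had a slope of 0.00863 (edgeR p = 0.0909). MYD88, the common adaptor of most Toll-like receptors, had -0.00381, CSK, the inhibitor of Src kinases, -0.00237, and PYCARD, the inflammasome adaptor ASC, -0.00173. SH2D1B and TYROBP, which pass signals from receptors of natural killer and myeloid cells, had slopes of 0.000412 and 0.00184. Of 21 further genes tested of these pathways 11 were negative, against 53.4% of all genes. In each direction 1 had an unadjusted p below 0.05 (7.08% of all genes with a negative slope, 6.78% with a positive one). IKBKG, the regulatory subunit of the IKK complex, had the smallest p (slope 0.00544, standard error 0.00230, edgeR p = 0.0277, FDR of 0.290).

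The genes of complement and phagocytes were negative in slope in 6 of 6 tested (53.4% of all genes were), with a median of -0.00604 and none with an unadjusted p below 0.05. CFD (Entrez 505647), the protease that starts the alternative complement pathway, had 189.6 to 381.2 CPM with a median of 288.6, the highest in the cow with the 43 kg calf and the lowest in that with the 56 kg calf. Its slope was -0.0113 (standard error 0.00749, edgeR p = 0.146) and -0.00627 without the latter cow. VNN1, a pantetheinase of myeloid cells, had a slope of -0.00982, MPEG1, the pore-forming perforin-2 of macrophages, -0.00656, FCN1, the lectin ficolin of monocytes, -0.00553, and C1QB, a chain of C1q, -0.00468. HP, the hemoglobin-binding acute phase protein haptoglobin, varied most of the members other than RSAD2 and IFNG, 3.83-fold between 33.3 CPM in the cow with the 30 kg calf and 127.5 CPM in that with the 35 kg calf, and had a slope of -0.00348 (standard error 0.0161). Without the cow with the 56 kg calf FCN1 and C1QB had slopes of 0.00310 and 0.00450, and with the monocyte score 0.00225 and 0.00320. C1R, the protease partner of C1s, was listed at 0 counts in all 20 cows, as were IFIT2, IFIT3 and IRF1 of the removed genes, and a count of 0 allows up to 0.122 CPM in the smallest library, for counting error only. Of 14 other complement and phagocyte genes tested 9 were negative, against 53.4% of all genes. None had an unadjusted p below 0.05 (7.08% of all genes with a negative slope, 6.78% with a positive one), the smallest being that of C4A (edgeR p = 0.0750).

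The 3 glycolytic enzymes had positive slopes, where 53.4% of all genes had negative ones. LDHA (Entrez 281274), which makes lactate from pyruvate, had 105.1 to 153.8 CPM with a median of 126.0, the highest in the cow with the 53 kg calf and the lowest in that with the 41.5 kg calf. Its slope was 0.00554 (standard error 0.00438, edgeR p = 0.220). HK1, the first enzyme of glycolysis, had a slope of 0.00529 (edgeR p = 0.171) and GAPDH one of 0.00471 (edgeR p = 0.236). All 3 slopes stayed positive in each of the 19 fits that left out 1 cow, although none had an FDR below 0.05. With all 20 cows they were smaller, 0.000688 for LDHA (edgeR p = 0.853), 0.00208 for GAPDH (edgeR p = 0.510) and 0.00366 for HK1 (edgeR p = 0.229). With the monocyte score as a covariate, LDHA had a slope of 0.00925 (edgeR p = 0.00876). Of 16 other genes of glycolysis and glucose uptake 8 were positive and 8 negative, where 53.4% of all genes were negative. Of the positive ones 6 had an unadjusted p below 0.05 (6.78% of all genes). HK2 had the smallest p (slope 0.0363, standard error 0.0113, edgeR p = 0.00432, FDR of 0.181). DBNL, an actin-binding adaptor, and PTMS, parathymosin, had slopes of -0.00267 and -0.00158. CSK and DBNL were the steadiest of all, with highest to lowest ratios of 1.28 and 1.33, where the median of the members other than RSAD2 and EIF2AK2 was 1.64.

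Interferon-stimulated genes outside Cluster 1 were compared with RSAD2 and EIF2AK2. Of 21 such genes tested, 20 had a negative slope and 14 had an unadjusted p below 0.05 with it (53.4% and 7.08% of all genes), with a median of -0.0183, and IFI6 had the smallest p (slope -0.0586, standard error 0.0124, edgeR p = 0.000116, FDR of 0.0976). Their mean z-score was 2.96 in the cow with the 30 kg calf and 0.484 in the next highest, the cow with the 39 kg calf. Their slopes without the cow with the 30 kg calf were not examined, so how far the 14 calls rest on it was not tested. Among the other clusters, 202 of 395 genes were negative in Cluster 2, 248 of 451 in Cluster 3 and 30 of 69 in Cluster 4, against 53.4% of all genes. Their medians were -0.000186, -0.000665 and 0.00207. In Cluster 3 the share of negative slopes was 55.0% in these 19 cows, and 59.4% without the cow with the 56 kg calf, when it was 60.6% among the 33 genes. With the monocyte score it was 62.3% in Cluster 3 and 60.6% among the 33 genes, and with the score of the removed genes 61.4% and 54.5%. The difference between the clusters was not tested.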

How the data were processed

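Whole blood in Tempus tubes was sequenced as 1 library per cow. Per the labels and the paper, the authors used Trimmomatic, STAR 2.7.0b (bosTau 9, ARS-UCD1.3) and featureCounts of Subread 2.0.3, and deposited raw counts per Entrez gene without normalization. The labels name a SMARTer Stranded kit and the paper a Truseq-stranded mRNA kit, and the strand setting and the treatment of multi-mapping reads are not given in the sources used here, so overlapping and related genes are uncertain. Names were taken from a table of ARS-UCD2.0, which held all 37063 identifiers, and no coordinates are given. No pair of the 190 library pairs was a repeat (chi-square per degree of freedom at least 12.0).

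The slope on calf BW was fitted with edgeR 4.0.16 (R 4.3.3, TMM, quasi-likelihood test) on 16206 genes (10 or more counts in 5 or more of 19 cows), and the standard error was taken as the slope over the root of F. DESeq2 1.42.0, limma 3.58.1 with voom, other size factors and filters, 20 cows, the rank of BW, scores or library size as covariates and each cow left out were the alternatives. A DESeq2 fit leaving out the cow with the 30 kg calf and the list without RSAD2 and EIF2AK2 were added after seeing the data. The step was tested on simulated data. The simulated slopes were steeper than those of all members except RSAD2, so recovery of smaller slopes was not tested. CPM used TMM library sizes, and the spread of a median slope is its jackknife standard error over cows. Each cow is a separate animal.

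The members, the role and pathway lists and the markers were chosen with earlier results of these data known, so no set test was made and no p was adjusted over a list. All members are named. Full values are given for members with an unadjusted p below 0.05, for that with the steepest slope of each role list, for RSAD2, EIF2AK2 and TBK1, and of each pathway list for the gene with the smallest p. TLR7, IKBKE, HP and the genes named for a turned sign were added after their values were seen. Promoter motifs were planned but not analysed here. Other tools were Python 3.11.15, numpy 2.4.6, pandas 2.3.3 and matplotlib 3.10.9.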

Additional observations from a re-analysis of the deposited data

How the results depend on the processing

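Slopes of single genes kept their direction in 974 of 1022 values over 31 alternatives, and 19 genes kept it under every alternative that gave them a value. No value passed an FDR of 0.05. Genes with a negative slope and an unadjusted p below 0.05 numbered 4 with all 20 cows, 0 with the score of the removed genes, 0 with DESeq2 without the cow with the 30 kg calf, and 0 to 3 when each cow was left out in turn. The slopes that turned were as follows, and the cause was not tested. With all 20 cows they were 0.000505 for C1QB, 0.00474 for IFNG, -0.000909 for IFNGR2 and -0.00104 for TYROBP. With the score of the removed genes they were 0.00634 for C1QB, 0.00113 for CSK, 0.00213 for DBNL, 0.000274 for IFNAR1, 0.00239 for MYD88, 0.00241 for PTMS and 0.00617 for PYCARD. With the monocyte score they were 0.00320 for C1QB, 0.00225 for FCN1, 0.00254 for HP, 0.00170 for PTMS and 0.00530 for PYCARD, and with the neutrophil score 0.000171 for HP and 2.93e-05 for PTMS. HP had 0.00343 with voom, and the slope of SH2D1B was -0.000276 with the rank of BW, -0.000123 with library size and -0.00363 with DESeq2 without the cow with the 30 kg calf, and TYROBP -0.00112 in the latter. Leaving out each cow in turn gave -0.00983 to 0.00450 for C1QB, -0.0125 to 0.00205 for CLEC7A, -0.0128 to 0.00310 for FCN1, -0.0140 to 0.00943 for HP and -0.00301 to 0.000633 for IFNAR1. It gave -0.0411 to 0.0104 for IFNG, -0.00158 to 0.00321 for IFNGR2, -0.00600 to 0.000953 for PTMS, -0.00559 to 0.00327 for PYCARD, -0.00515 to 0.00747 for SH2D1B and -0.00160 to 0.00442 for TYROBP. Over these fits 20 to 27 of 33 genes were negative, with medians of -0.00629 to -0.000745.

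No paired analysis was possible because each cow is 1 sample of a single continuous measure. With 19 cows the median standard error of a slope was 0.00542 for these genes, larger than their median slope in size. The lightest and the heaviest calf weights are held by 1 cow each. Counts were low for IFNG, while the other members with counts had at least 64 in every cow. Why C1R, IFIT2, IFIT3 and IRF1 were at 0 was not tested.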
